A study of Rattus norvegicus with 79 samples.

Results

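White matter dissected next to the medial prefrontal cortex (mPFC) was compared between aged and young male rats of the inbred Fischer strain F344, using the 17 white matter libraries among the 79 libraries of the study. Of these, 9 came from aged rats (17 to 22 months) and 8 from young rats (5 to 6 months), 1 library per rat. All rats had been behaviorally tested before the tissue was taken, and libraries of mPFC and of CA1, a region of the hippocampus, exist from each of the same 17 rats. The question was which genes differ with age in white matter and how much of the difference remains when the cortical RNA in each library is taken into account. Reads of polyA RNA counted on genes numbered 6.92 to 14.7 M (mega) per young library, with a median of 10.02 M. Aged libraries held 7.41 to 11.1 M, with a median of 9.9 M.

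White matter is built of axons and of the glia around them. Oligodendrocytes wrap the axons in myelin, their progenitors persist in the adult, and astrocytes and microglia lie between the fibers. Neuronal cell bodies sit in the neighboring gray matter, so transcripts of neuronal cell bodies in a white matter sample can come from gray matter taken along with it. In bulk RNA, fewer cells of a type and less RNA per cell cannot be told apart. Genes are listed by Ensembl number, and 0 numbers matched a gene symbol in the reference used here. The label was therefore not checked against myelin markers, and genes are described by their level in white matter, mPFC and CA1 of the same rats and by their behavior across libraries.

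Genes from the surrounding gray matter were followed first. A cortex gene was one at least 1.5 log2 units higher in mPFC than in white matter of the same rats, with both ages weighted equally, and averaging a normalized count of at least 20 in mPFC. There were 638 such genes, which took 12.2% of mPFC reads. Their reads in a white matter library, as a percentage of the mean in the mPFC libraries, are called cortical-gene reads. They follow gray matter RNA in a library and are not its exact share. A rat's own mPFC library could lie below or above that mean, from 85.15% in young rat 121413 to 108.8% in aged rat 2191 (88.2% in rat 121437). The genes do not single out cortex, since 224 of them were also at least 1.5 log2 units higher in CA1 than in white matter.

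Cortical-gene reads ran from 22% to 52.4% in young libraries (median 33.0%) and from 14.8% to 48.0% in aged libraries (median 22.2%). The mean was 34.8 ± 11.0% in young (SD, n = 8) and 25.2 ± 10.9% in aged rats (SD, n = 9), so the young samples held more, with wide overlap. The most cortical-gene reads were found in young rats 121412 (52.4%) and 121445 (49.9%) and in aged rat 121437 (48.0%). The least were found in aged rats 2181 (14.8%), 2191 (15.6%) and 2182 (16.2%), and among the young rats in 2172 (22%). White matter genes, the 320 genes at least 1.5 log2 units higher in white matter than in both mPFC and CA1, ran the other way and took 11.0 ± 2.28% of the reads in young and 12.6 ± 2.33% in aged libraries (SD).

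**Figure D1:**
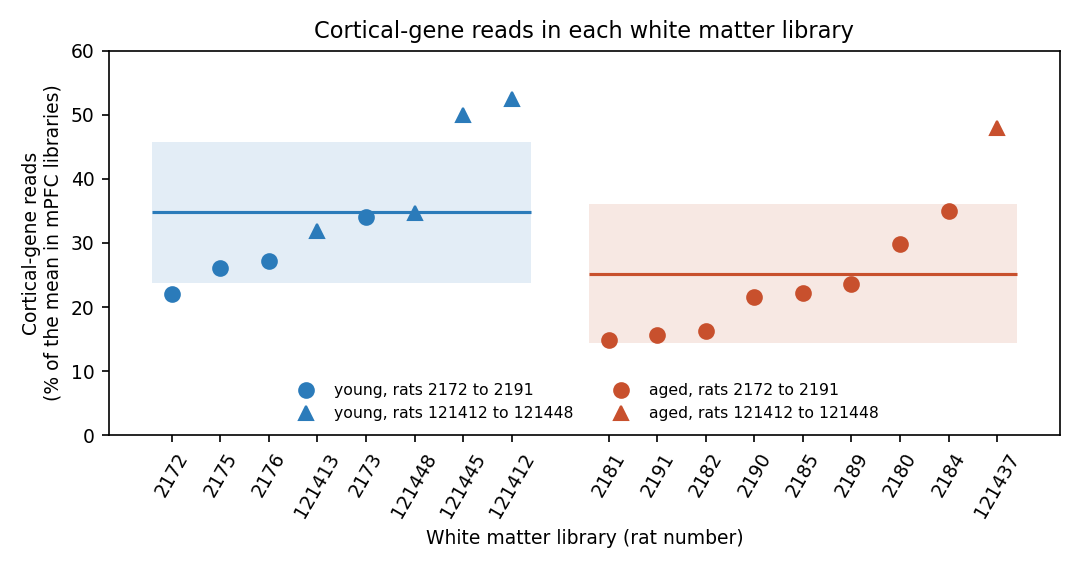
Cortical-gene reads of each white matter library (vertical axis, percent of the mean in mPFC libraries), with libraries ordered by value within each age; lines and bands are the mean and SD of 8 young and 9 aged rats. Triangles are rats numbered 121412 to 121448 and circles rats numbered 2172 to 2191; the aged library highest on the axis, 121437 at 48.0%, lies above all but 2 of the young ones.

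The rat numbers fall into a pair of series that the labels do not explain, and these are uneven over age. Numbers 2172 to 2191 belong to 4 young and 8 aged rats, and numbers 121412 to 121448 to 4 young rats and 1 aged rat. Cortical-gene reads were higher in the second series. Within the first, they were 27.3 ± 4.99% in young and 22.4 ± 7.18% in aged rats (SD), and in the second they were 42.2 ± 10.4% in the young rats and 48.0% in the aged rat. Young rat 121445 also stood apart in other ways. Its median correlation with all other white matter libraries, of both ages, was 0.934, against 0.959 to 0.971 for the other young libraries. Results are therefore given with and without these libraries and within the larger series.

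With age as the only term, 378 of 16536 genes tested (2.29%) differed between aged and young white matter at an adjusted p under 0.05 (limma, Benjamini-Hochberg). Most were higher in aged rats, with 312 genes higher (1.89%) and 66 lower (0.399%). The median log2 difference was 0.77 among the higher and -0.54 among the lower genes, and -0.01 over all genes tested. A difference of at least 1 log2 unit was reached by 73 of the higher and 8 of the lower genes. In 55 of the higher and 5 of the lower genes, the 9 aged and 8 young libraries did not overlap, as in 0.369% of all genes tested. At an unadjusted p under 0.025, the limit used in the study, 2317 genes (14%) differed, 1272 higher and 1045 lower. The split at this looser limit depended on the fit. More genes were higher when each gene was tested on its own on unlogged counts (1157 higher, 802 lower), with the rat number series as a term (645 and 427) and within the rats numbered 2172 to 2191 (737 and 420). More were lower with edgeR on the whole reads (1178 and 1321), with limma without aged rat 121437 (1643 and 1738) and without both rats 121445 and 121437 (1320 and 1422).

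The largest rise among genes averaging 50 normalized counts or more was that of ENSRNOG00000033215. Its normalized count ran from 22.01 to 77.3 in young white matter (median 38.0) and from 242 to 1066 in aged white matter (median 728). Every aged library was above every young one. The means were 44.5 ± 19.7 and 704 ± 251 (SD), a log2 difference of 3.97 (SE 0.27, limma adjusted p = 1.947e-08). With the cortex index in the fit, which is described below, the difference was 3.81 (SE 0.29, limma adjusted p = 4.741e-08).

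ENSRNOG00000032708 behaved in nearly the same way. Its normalized count ran from 21.3 to 75.4 in young libraries (median 41.3) and from 308 to 1112 in aged libraries (median 668), again without overlap. The log2 difference was 3.97 (SE 0.25, limma adjusted p = 6.827e-09), and 3.87 with the cortex index (SE 0.28, limma adjusted p = 1.925e-08). The ratio between ENSRNOG00000033215 and ENSRNOG00000032708 stayed between 0.676 and 1.20 in the 17 libraries (median 1.01). Genes that follow each other this closely may share reads, as near-identical copies do, and how the counting split such reads was not tested, so the values are uncertain as 2 separate genes.

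Both genes were lower in the neighboring cortex. In mPFC of the same rats, ENSRNOG00000033215 was at 12.3 ± 5.51 in young and 48.9 ± 71.3 in aged rats (SD), where aged rat 121437 was at 236 and the other 8 aged rats were at 9.09 to 44.5. In CA1, the aged libraries were at 45.6 to 354. Of the young CA1 libraries, 7 were at 0 to 11.1 and that of rat 121413 was at 2606. The same CA1 library held 2834 for ENSRNOG00000032708, against 6.11 to 29.9 in the other 7 young rats, whereas the white matter of rat 121413 held 66.2 and 75.4 for the pair, inside or at the upper edge of the young range.

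Falls were smaller. The largest fall at the same level of expression was that of ENSRNOG00000009465, whose normalized count ran from 53.8 to 172 in young libraries (median 126) and from 8.74 to 72.1 in aged libraries (median 58.6). The groups overlapped, with 4 of 9 aged libraries below the lowest young one and all 9 below the young median. The log2 difference was -1.55 (SE 0.39, limma adjusted p = 0.04321). This call was lost in 16 of 29 alternatives, among them the fit within the 2172 to 2191 series (log2 difference -1.56, limma adjusted p = 0.1868) and that with the number series as a term (-1.74, limma adjusted p = 0.06392), where the difference was no smaller. With the cortex index the difference was larger, at -2.06 (SE 0.35, limma adjusted p = 0.003502), and it passed within that series as well (limma adjusted p = 0.007479). With cortical-gene reads as the covariate it was -2 (limma adjusted p = 0.004285). After subtraction of the mPFC profile, floored at 0, it was -3.2 and did not pass (limma adjusted p = 0.1289). The ways of taking cortex into account thus lay on both sides of the threshold. The lowest aged values, 8.74, 12.9 and 19.2, were those of rats 2180, 2184 and 121437, which had the most cortical-gene reads among the aged rats (29.9%, 35.0% and 48.0%). In mPFC the gene was at 50.1 ± 16.4 in young and 98.9 ± 63.3 in aged rats (SD), opposite in direction to white matter, although the mPFC difference did not pass (limma adjusted p = 0.1267).

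The next fall, that of ENSRNOG00000001874, was in a cortex gene. Its normalized count ran from 152 to 516 in young libraries (median 207) and from 67.6 to 200 in aged libraries (median 110). All 9 aged libraries were below the young median, and 6 were below the lowest young library. The log2 difference was -0.99 (SE 0.24, limma adjusted p = 0.03125). In mPFC, where the level was higher by 1.64 log2 units, it was at 517 ± 92.9 in young and 542 ± 49.9 in aged rats (SD). Within the 2172 to 2191 series the difference was -0.68 and did not pass (limma adjusted p = 0.1581). The gene is a member of the cortex index, so values adjusted for the index are in part adjusted for the gene itself. With the index the difference was -0.53 (SE 0.14, limma adjusted p = 0.06988), and with an index of genes above both white matter and CA1, to which it does not belong, it was -0.61 (limma adjusted p = 0.07275). It was -0.58 with an index of cortex genes chosen in young rats at 1 log2 unit (limma adjusted p = 0.03891) and -0.55 with cortical-gene reads as the covariate (limma adjusted p = 0.01884). After subtraction of the mPFC profile, floored at 0, it was -5.32 (limma adjusted p = 0.00149), far from the size in any other fit. These values lay on both sides of the threshold. The highest young values were those of rats 121445 (516) and 121412 (353), and the highest aged value was that of rat 121437 (200), the same libraries that held the most cortical-gene reads.

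**Figure D2:**
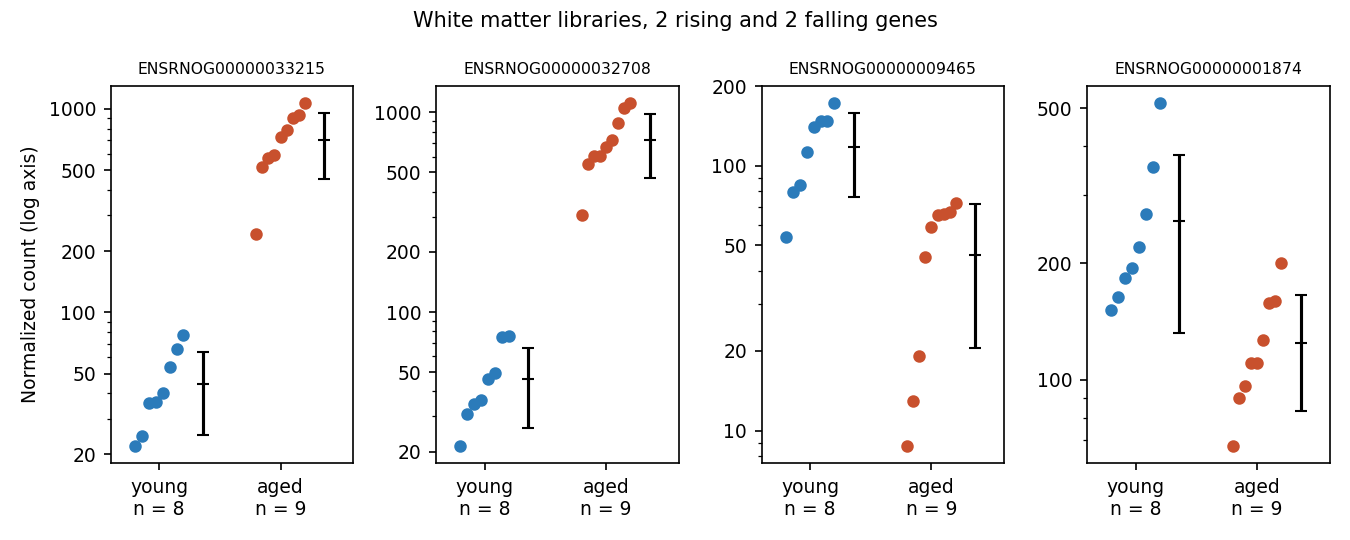
Normalized counts (log axis) of 2 rising and 2 falling genes in 8 young and 9 aged white matter libraries; points are libraries in order of value, and the bar beside them is the mean with its SD. The groups do not overlap for the rising genes on the left, and they overlap for ENSRNOG00000009465 and ENSRNOG00000001874.

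The direction of the age difference went with the regional level of a gene. That level was averaged over both ages of the same white matter libraries, so a gene's own age difference can move it between classes. Shares by class are in part set by the age difference itself, and shares by classes set in young rats alone were not counted. Of the 626 cortex genes tested, 94.7% were lower in aged white matter, against 52% of all genes tested, with a median log2 difference of -0.47. However, only 4 passed as lower (0.639%, against 0.399% of all genes tested) and 1 as higher. Of the 89 tested genes that were higher in mPFC than in both white matter and CA1, 92.1% were lower, with a median of -0.41. White matter genes were mostly higher in aged rats. Of these 320 genes, 15.3% had a lower value, and the median was 0.23. Among them, 27 passed as higher (8.44%, against 1.89% of all genes tested) and 1 as lower (0.312%). A rise in the aged libraries can by itself bring a gene into this class. Of all genes tested, 28% had an mPFC level at least 0.5 log2 units below that in white matter, 50.6% were within 0.5 log2 units and 21.4% were at least 0.5 log2 units higher in mPFC. Among the 312 genes called higher, 254 were of the first kind and 52 of the second, a split that their own rise shifts toward the first kind. Among the 66 called lower, 33 were at least 0.5 log2 units higher in mPFC, 26 were within 0.5 and 7 were lower.

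The 8364 genes within 0.5 log2 units between the regions, whose level a mixture of both would change least, had a median of -0.02. Of these, 52 passed as higher (0.622%) and 26 as lower (0.311%), the latter share near that of all genes. Between these classes, which rest on the same white matter libraries, the median changed in steps. It was 0.27 for the 333 genes with mPFC lower by 2 log2 units or more, 0.25 for the 1469 genes with mPFC lower by 1 to 2, and 0.14 for the 2835 genes with mPFC lower by 0.5 to 1. On the other side it was -0.21 for 1978 genes with mPFC higher by 0.5 to 1, and -0.32 for 931 genes with mPFC higher by 1 to 1.5. The mean of cortical-gene reads was lower in aged libraries, with the overlap and the uneven series given above.

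The cortex index of a library was the mean log2(RPM + 1) over the cortex genes, where RPM is reads per M reads on genes, and it was 4.34 ± 0.37 in young and 3.94 ± 0.46 in aged libraries (SD). Beside age, the index had a slope at an adjusted p under 0.05 in 4828 of the 15910 genes that are not cortex genes (30.3%, limma), with 2267 slopes upward and 2561 downward. With the index as a term, the median residual SD over the 15701 genes also tested in mPFC and CA1 fell from 0.29 to 0.24 log2 units. Without the index, white matter libraries of the same age were somewhat more spread than mPFC libraries of the same rats (0.25) and less than CA1 libraries (0.38).

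With age and index fitted together, 207 of the 15910 genes (1.3%) differed with age at an adjusted p under 0.05 (limma), 133 higher (0.836%) and 74 lower (0.465%). At an unadjusted p under 0.025 there were 1142, 585 higher and 557 lower. The step from one regional class to the next was no longer seen, as the class medians lay between -0.04 and 0.06. The median was -0.01 for cortex genes, of which 51.1% were lower, and -0.03 for white matter genes, of which 14 passed as higher (4.38%) and 12 as lower (3.75%). For cortex genes this follows from the index, which is built from them.

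**Figure D3:**
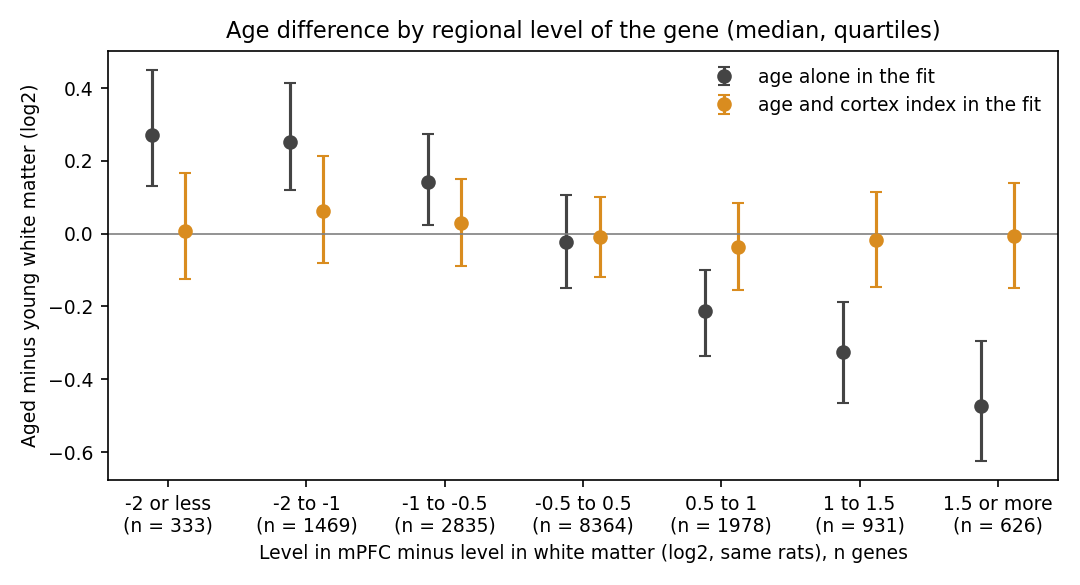
Median log2 difference between aged and young white matter (vertical axis, bars from the lower to the upper quartile over genes) for genes grouped by their mPFC minus white matter level over both ages (horizontal axis, log2). Medians step from 0.27 to -0.47 with age alone and lie between -0.04 and 0.06 with the cortex index in the fit.

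Of the 378 genes called with age alone, 151 (39.9%) were also called with the index, 131 of the higher genes (42.0%) and 20 of the lower genes (30.3%). In the other direction, these made up 72.6% of all 208 genes called with the index, 1 cortex gene included. Every one of the 378 kept its sign, and the highest unadjusted p among them with the index was 0.0128, against a limit of 6.2e-04 for the adjusted threshold in that fit. The median of the 312 higher genes fell from 0.77 to 0.56 log2 units, and that of the 66 lower genes moved from -0.54 to -0.49. For the 131 higher genes called in both fits it went from 0.90 to 0.69, and for the 20 lower genes from -0.69 to -0.73. Of the 131, 112 were at least 0.5 log2 units lower in mPFC than in white matter, as for 28% of all genes. Another 17 were within 0.5 log2 units, as for 50.6% of all genes, and 14 were white matter genes. Their own rise adds to the first count, as above. Of the 20 lower genes, 7 were lower in mPFC by at least 0.5 log2 units, 7 were within 0.5 and 6 were higher in mPFC.

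A further 57 genes were called only with the index, and 54 of these were lower in aged rats. Their median difference was -0.61 with age alone and -0.91 with the index, the pattern seen in ENSRNOG00000009465. Of the 74 falls with the index, 9 were in genes with mPFC lower by 2 log2 units or more, 25 in genes with mPFC lower by 1 to 2 and 20 in genes with mPFC lower by 0.5 to 1, against 0, 4 and 3 with age alone. The number of falls rested on single libraries. It was 24 without aged rat 121437, 40 without young rat 2175 and 145 without young rat 2172, and it was 30 within the 2172 to 2191 series and 28 among the libraries under 40% cortical-gene reads. Genes with mPFC lower by at least 0.5 log2 units made up 28% of all genes tested, 54 of the 74 falls, 19 of the 24 without rat 121437 and 72 of the 145 without rat 2172. Of the 54 falls called only with the index, 13 were called without rat 121437.

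**Figure D4:**
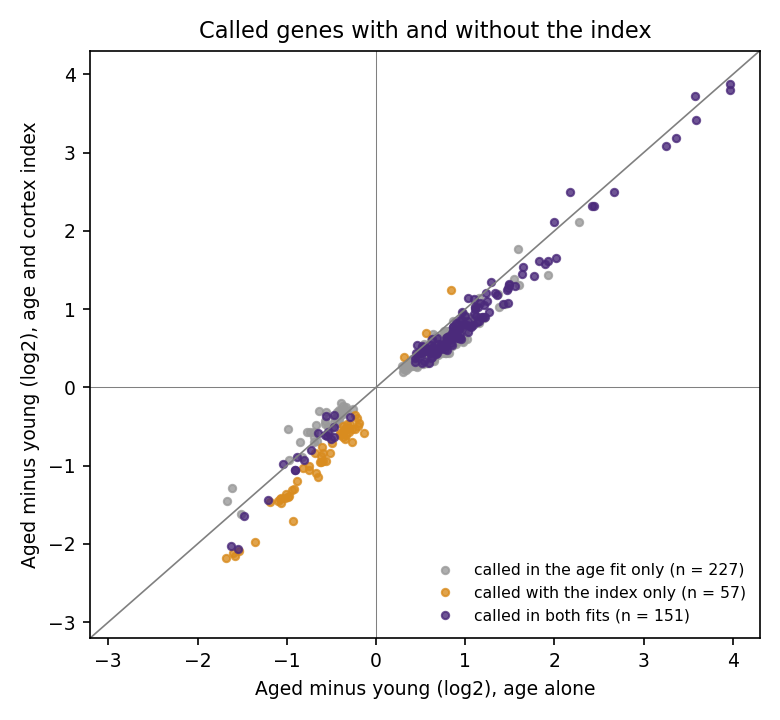
Log2 difference between aged and young white matter with age alone (horizontal axis) and with age and cortex index in the fit (vertical axis) for the genes called in either fit, 1 point per gene, with the line of equal values. The 227 genes called with age alone keep their sign, most rising genes lie below the line, and the 57 genes called only with the index are mostly falling genes below it.

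The number of genes called with age alone depended on single libraries. It was 1251 (791 higher, 460 lower) without young rat 2172, the young library with the least cortical-gene reads, and 954 (604 higher, 350 lower) without aged rat 121437, the aged library with the most. It fell to 201 without young rat 121445 and to 209 without young rat 121412, the 2 young libraries with the most cortical-gene reads. These libraries also differed in depth. Rat 2172 had the fewest reads of all (6.918 M), rat 121437 the fewest among the aged (7.415 M) and rat 121445 the most of all (14.71 M). Rat 121412 had 10.15 M. Without aged rat 2182, at 7.466 M, the count was 234. Whether depth or cortical-gene reads moved the counts was not tested. With the index, there were 296 genes (151 higher, 145 lower) without rat 2172 and 124 (100 higher, 24 lower) without rat 121437. Without both rats 121445 and 121437, 544 genes were called with age alone and 158 (127 higher, 31 lower) with the index. Among the 6 young and 8 aged libraries under 40% cortical-gene reads, 331 genes were called with age alone and 145 (117 higher, 28 lower) with the index.

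**Figure D5:**
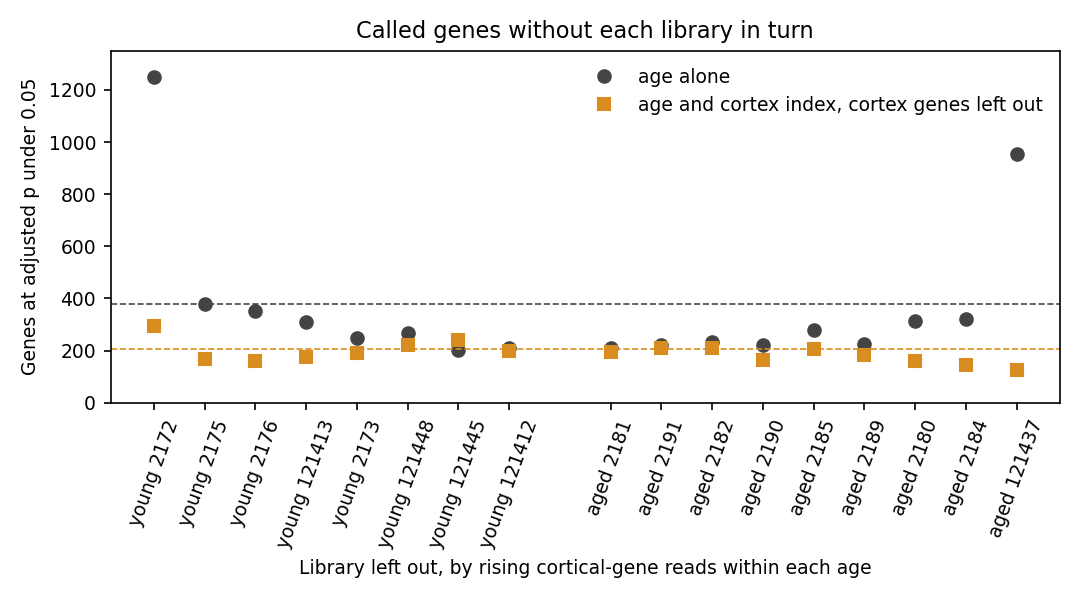
Number of genes at an adjusted p under 0.05 (vertical axis) with each library left out in turn, libraries ordered by rising cortical-gene reads within each age; dashed lines are the counts with all libraries, 378 with age alone and 207 with age and cortex index. Counts with age alone reach 1251 and 954 without young rat 2172 and aged rat 121437, and those with the index stay between 124 and 296.

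Within the 2172 to 2191 series (4 young, 8 aged), 178 genes were called with age alone, 167 of them higher and 11 lower. When the series entered the fit of all 17 rats as a term, 132 were called, 115 higher and 17 lower. With the index beside these, 149 genes (119 higher, 30 lower) and 190 genes (126 higher, 64 lower) were called. The second series, with 1 aged rat, was too small to give a value of its own. With age alone, 145 of the 378 genes were also called within the larger series and 124 with the series as a term. When the mPFC profile of the same rat, scaled by its cortical-gene reads, was subtracted from each white matter library, 220 genes were called (183 higher, 37 lower), of which 173 were among the 378.

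In all, 93 genes were called with age alone, with the index in limma and in edgeR, after subtraction, within the larger series and with the series as a term with and without the index. Of these, 89 were higher and 4 lower in aged white matter. The 89 had differences of 0.45 to 3.97 log2 units with age alone (median 0.95, and 0.78 with the index), and 43 of them reached 1 log2 unit. In 46 of the 89 the ages did not overlap, against 0.369% of all genes tested. The 89 were chosen by their age difference in these same libraries, so their size and lack of overlap are partly built in. Expression of 80 of the 89 was at least 0.5 log2 units lower in mPFC than in white matter, as for 28% of all genes. Of the others, 7 were within 0.5 log2 units and 2 were higher in mPFC, and 14 of the 89 were white matter genes. The level includes the aged libraries in which the 89 were called higher, so the excess over 28% is partly built in. The 4 lower genes had a median of -1.05, and -1.24 with the index. ENSRNOG00000033215 and ENSRNOG00000032708 kept a log2 difference of at least 3.76 in each of these fits.

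The age difference in white matter was set against that in the mPFC of the same 17 rats. It differed in 113 of 15881 genes (0.712%) at an adjusted p under 0.05 (limma, age by region). In 62 genes the difference was more positive in white matter, with a median log2 difference of 0.45 in white matter and -0.31 in mPFC. In the other 51 it was more negative, with medians of -0.37 and 0.29. Of the 113, 40 were called in white matter itself, and 20 of these also with the cortex index. The count was not stable. With the rat as a fixed block, which pairs the libraries of each animal, 5 genes passed, and within the 2172 to 2191 series 6 passed. With the cortex index as a term within white matter, 145 genes passed, 55 of them among the 113, and the balance turned to 42 more positive and 103 more negative in white matter.

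The genes called in white matter were then read in the mPFC and CA1 of the 14 rats that gave no white matter (3 young, 11 aged), all from a further number series (1918 to 1936). These libraries had no part in the choice of the genes. Of the 312 genes higher in aged white matter, 292 were tested in mPFC, where 215 were higher in aged rats with a median of 0.18 log2 units. In CA1, 243 of 306 were higher, with a median of 0.24. Over all genes, 44.4% were higher in mPFC and 50.6% in CA1, with medians of -0.03 and 0.00. For the 89 higher genes among the 93, 68 of 81 were higher in mPFC (median 0.26) and 79 of 88 in CA1 (median 0.42). The 66 genes lower in aged white matter had medians of -0.07 in mPFC and 0.01 in CA1, near those of all genes, and 38 of 64 and 30 of 65 were lower there. In the 17 rats that gave the white matter, and so not independent of it, 56 of 65 falling genes were lower in CA1 (median -0.23, against 0.00 for all genes). In their mPFC, 29 of 64 were lower (median 0.02). Of the rising genes, 293 of 306 were higher in CA1 (median 0.39) and 244 of 292 in mPFC (median 0.26). Over all genes in these rats, 50.8% were higher in CA1 and 48.2% in mPFC. At an adjusted p under 0.05 (limma), 0 genes were called with age in CA1 and 230 in mPFC. Those 230 included 29 of the rising genes and 1 of the falling genes.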

How the data were processed

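RNA sequencing of white matter (8 young, 9 aged rats) was compared, with mPFC and CA1 of the same rats for reference. The deposited signal values are gene counts that the authors normalized with DESeq, after alignment to rn5 with TopHat2 and Bowtie2 and featureCounts counting against annotation Rnor_5.0.78; versions of these tools are not given in the sources used here. Each value divided by its library's step came out as a whole read (100%, largest deviation 4.103e-05 reads). No table column was without a sample (0). Replicates are separate rats.

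Tests were two-sided, made with limma 3.58.1 in R 4.3.3 (variance trend) on the log2 scale with a pseudocount of 1, which understates changes of low genes, over genes with a mean above 5. The fits were also checked on simulated data that mixed a white matter and an mPFC profile, with no separate effect of the number series. The outcome is not reported here, and such data cannot bear on that effect. As an alternative, edgeR 4.0.16 (quasi-likelihood) was run on whole reads and called 418 genes, 316 higher and 102 lower. Figures were drawn with Python 3.11.15 and matplotlib 3.10.9.

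The members and lists were chosen with earlier results of these data known. Since 0 of 26689 Ensembl numbers matched a symbol, marker lists, promoter motifs and a pan-neuronal index were not run, and the genes named are the 2 largest rises and 2 largest falls among genes called with age alone at a mean of at least 50. Classes by region other than cortex genes, the 93 shared genes, and the fits without 2 libraries, under 40% cortical-gene reads, with an index over genes above both white matter and CA1 or with an index term within white matter for the age by region test were chosen after seeing the data.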

Additional observations from a re-analysis of the deposited data

Results flagged for a closer look

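Young rat 121445 stood apart from the other young white matter libraries in its reads from genes that are higher in CA1 than in both white matter and mPFC, which came to 34.1% of the mean in CA1 libraries, against a young median of 11.8%. It also stood apart from the other young libraries in its median correlation with all other white matter libraries of both ages, 0.934. Aged rat 121437 stood apart from the other aged libraries in its reads from genes that are higher in mPFC than in both white matter and CA1, at 42.5% of the mean in mPFC libraries, against an aged median of 19.1%. Of 22 such tests, chance gives about 1 in 20 (Dixon's test). The age difference differed between white matter and mPFC in 113 genes by the age by region term in a fit that did not pair the libraries of each rat, and in 5 genes with the rat as a fixed block.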

How the results depend on the processing

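With age alone, the 378 genes at an adjusted p under 0.05 became 132 with the number series as a term, 178 within the 2172 to 2191 series, 232 with cortical-gene reads as a covariate and 220 after subtraction of the mPFC profile; the 2317 genes at an unadjusted p under 0.025 became 1072 and 1157 under the first pair. Leaving out each library in turn gave 201 to 1251 and 1582 to 3484 genes, and 124 to 296 with the cortex index. The adjusted count moved by more than 1.5 times without young rats 2172 (1251), 121445 (201), 121412 (209) or 2173 (250) and without aged rats 121437 (954), 2181 (210), 2190 (221), 2191 (223), 2189 (224) or 2182 (234). With the index, the other alternatives gave 145 to 236 genes. The causes were not tested. The age by region count of 113 was 121 with the rat as a replicate block through an estimated correlation (0.0195), 5 with the rat as a fixed block, 6 within the 2172 to 2191 series and 145 with the index. The pairing comes from the rat number, as both libraries are of 1 animal. ENSRNOG00000033215 and ENSRNOG00000032708 kept their calls in all alternatives; with age alone ENSRNOG00000009465 lost its call in 16 and ENSRNOG00000001874 in 11 of 29, and no named gene changed sign. Depth was 6.92 M reads or more, and its effect was not tested.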
